A study of Drosophila melanogaster with 3 samples.

Results

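Transfer RNA (tRNA) genes were examined for peaks of the Drosophila protein topi (matotopetli) in chromatin immunoprecipitation and sequencing (ChIP-seq) data. All 290 genes annotated as tRNA on the main chromosomes were taken, of 18277 genes in all, without the mitochondrial genome. A gene counted as having a peak when the summit, the base the authors' peak caller marked as the top of the peak, lay within 500 bp of the gene start. The 290 genes cover 22 amino acid classes, with the initiator methionine tRNA (iMet) and the selenocysteine tRNA (SeC) counted as classes of their own. They form 160 loci when starts within 2000 bp of each other are linked. Of these loci, 91 hold a single gene and 69 hold the other 199 genes, with up to 7 genes in a locus.

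The libraries came from whole white prepupae, both sexes pooled, of a stable transgenic Drosophila melanogaster line (topi-GFP) that carries topi with GFP (eGFP) at its C terminus, and an anti-GFP antibody was used for the precipitation. The series has 3 replicates of this 1 group, no second condition, no stated treatment and no stated age beyond the stage. An untagged control was not among the libraries, and binding of topi and other sources of a peak cannot be told apart. The tissue was not dissected, so the cells in which a peak arose are not known, and nothing says from which cells the fusion protein was recovered. Each replicate has a list of 30000 peaks, and the pool of the replicates has another list of 30000 (the pooled relaxed list). The optimal set of the irreproducible discovery rate procedure (the IDR set) holds 8424 peaks. The procedure is meant to keep peaks that rank alike between replicates, but ranks of single IDR peaks can differ between the lists. The replicate and relaxed lists hold background regions by design. Since the lists hold no read counts, sequencing depth is unknown.

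Topi, a DNA-binding protein with zinc fingers, belongs to a testis complex that switches on genes of spermatocytes. The tRNA genes are transcribed by RNA polymerase III rather than by RNA polymerase II. Their promoter lies inside the gene, in the A box and the B box, which TFIIIC binds, and TFIIIC then places TFIIIB just before the gene start. Many tRNA genes occur as near-identical copies, so short reads from inside them often cannot be assigned to 1 gene.

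The sequences of 5 tRNA genes with an IDR summit are shown on the strand of the gene, from 5′ to 3′, with bases of tRNA genes in capitals. The first, on 3R, has the strongest IDR peak near a tRNA gene, and its start lies 444 bp from the transcription start site (TSS) of the protein-coding gene CG8036. The second, on X, has the strongest peak among tRNA genes over 500 bp from any coding TSS. Each is shown as the 300 bases that end at the 3′ end of the gene, which are chr3R:8669081-8669380 and chrX:3427452-3427751 in dm6. The summit is base 8 of the first and base 38 of the second.
tRNA:Tyr-GTA-1-8: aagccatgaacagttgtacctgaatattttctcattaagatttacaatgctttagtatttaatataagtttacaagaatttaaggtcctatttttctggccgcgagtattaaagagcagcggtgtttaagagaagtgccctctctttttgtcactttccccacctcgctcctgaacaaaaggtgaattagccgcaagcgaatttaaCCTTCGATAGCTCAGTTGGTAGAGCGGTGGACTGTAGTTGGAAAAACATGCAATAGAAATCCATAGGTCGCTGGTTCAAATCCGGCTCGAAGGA
tRNA:Gln-TTG-2-1: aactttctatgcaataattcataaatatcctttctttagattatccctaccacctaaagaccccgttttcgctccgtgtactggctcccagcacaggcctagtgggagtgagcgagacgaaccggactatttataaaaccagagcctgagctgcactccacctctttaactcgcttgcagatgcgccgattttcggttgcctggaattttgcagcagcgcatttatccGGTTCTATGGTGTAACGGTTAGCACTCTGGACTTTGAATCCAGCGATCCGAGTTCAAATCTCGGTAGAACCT
The other sequences are the 201 bases around an IDR summit, which is base 101, for 3 genes whose start lay within 100 bp of the summit, picked after their values were seen. They show a summit inside the gene (chr3L:13212293-13212493), past its 3′ end (chr2L:8541749-8541949) and before its start (chr3R:7130973-7131173).
tRNA:Pro-AGG-1-7: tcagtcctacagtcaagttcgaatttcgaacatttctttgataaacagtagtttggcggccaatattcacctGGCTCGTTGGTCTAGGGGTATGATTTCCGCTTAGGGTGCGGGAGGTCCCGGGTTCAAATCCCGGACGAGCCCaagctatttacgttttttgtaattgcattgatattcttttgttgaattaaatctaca
tRNA:Asp-GTC-1-5: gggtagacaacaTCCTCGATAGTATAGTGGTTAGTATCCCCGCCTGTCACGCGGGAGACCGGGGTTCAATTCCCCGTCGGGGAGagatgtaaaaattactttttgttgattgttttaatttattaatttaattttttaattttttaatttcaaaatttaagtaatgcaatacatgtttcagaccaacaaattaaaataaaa
tRNA:Gly-TCC-1-2: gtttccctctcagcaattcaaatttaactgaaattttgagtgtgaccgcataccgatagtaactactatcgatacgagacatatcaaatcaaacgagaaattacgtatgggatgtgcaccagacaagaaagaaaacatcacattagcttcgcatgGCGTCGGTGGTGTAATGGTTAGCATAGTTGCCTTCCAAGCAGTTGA
The core of the B box, GTTCNANNC, was found on the gene strand of each of these genes. It starts at base 280 of both 300-base sequences, at base 124 of the proline sequence and at base 64 of the aspartate sequence, and in the glycine gene it lies beyond the bases shown. Searched on both strands, it was in 271 of the 290 tRNA genes (93.4%). Windows of 73 bp, the median tRNA gene length, that begin at a protein-coding gene start held it in 3.16% of 13968 cases. A match is a run of letters and was not tested for binding.

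Over the whole lists, replicate 1 stood apart from replicates 2 and 3 at tRNA genes. Among all 30000 listed peaks, 79 tRNA genes (27.2%) had a summit in replicate 1, 181 (62.4%) in replicate 2 and 168 (57.9%) in replicate 3. Protein-coding genes, by the same rule, had a summit in 34.9%, 48.1% and 43.8% of cases in replicates 1, 2 and 3. The tRNA share was thus below the coding share in replicate 1, with a difference of -7.64 percentage points, and above it in the others, by 14.4 and 14.2 points. The mean difference over the 3 replicates was 6.96 ± 12.6 points (SD, n = 3; exact sign-flip permutation test, two-sided, p = 0.5), so it was within the spread between replicates. Over replicates 2 and 3 alone, a choice made after seeing the data, it was 14.3 points. The smallest p that 3 replicates allow is 0.25, so no comparison over replicates here can pass 0.05. The most common peak widths of replicates 1, 2 and 3 were 376, 416 and 420 bp.

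In the IDR set the share of tRNA genes with a summit was below that of protein-coding genes, and in the pooled relaxed list it was above. In the IDR set 47 of 290 tRNA genes had a summit (16.2%, exact Clopper-Pearson interval 12.2% to 21.0%). The background was 21.8% of 13968 protein-coding genes, 19.1% of all 17987 other genes and 9.97% of 301 snoRNA and snRNA genes, other short non-coding genes. Bases of the genome within 500 bp of an IDR summit made up 5.68%. In the pooled relaxed list 168 tRNA genes had a summit (57.9%), against 40.2% of protein-coding genes, 37.1% of all other genes, 25.2% of snoRNA and snRNA genes and 17.8% of bases. Among the 4212 strongest IDR peaks, the tRNA share was 3.45% and the coding share 12.0%, and among IDR peaks found in the strongest of replicates 2 and 3, whether or not replicate 1 held them, they were 8.97% and 17.6%. All intervals cover counting error only, and genes of 1 locus share summits.

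In replicates 2 and 3 the order of the shares turned when only the strongest peaks were taken. Among the 8424 strongest peaks of each replicate, as many as the IDR set holds, 19 tRNA genes (6.55%) had a summit in replicate 1, 66 (22.8%) in replicate 2 and 28 (9.66%) in replicate 3. Protein-coding genes had 19.6%, 24.6% and 22.9%. Here replicate 2 was the one apart, with a difference of -1.81 percentage points against -13.1 and -13.3 in replicates 1 and 3. The tRNA share was lower in 3 of 3 replicates, with a mean difference of -9.38 ± 6.56 percentage points (SD, n = 3; exact sign-flip permutation test, two-sided, p = 0.25). Without replicate 1 the mean difference was -7.55 points. In replicate 2 the sign depended on the choice, with 1.32 points against all other genes and 1.95 points with summits within 1000 bp. Of the tRNA genes, 14 had a summit among the strongest peaks of all 3 replicates and 36 in replicate 2 alone, while 222 had none. Over the whole lists 45 genes had a summit in all 3 replicates, 111 in 2 of them and 63 in none.

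**Figure D1:**
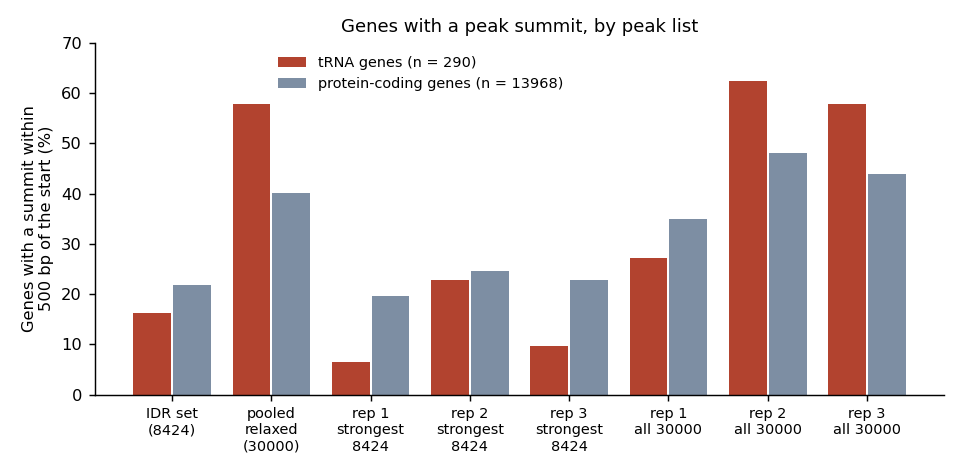
Bars give the percentage of tRNA genes (red) and protein-coding genes (grey) with a summit within 500 bp of the gene start in the IDR set, the pooled relaxed list, the 8424 strongest peaks of each replicate and all 30000 peaks of each replicate. The red bar is the lower of each pair except in the pooled relaxed list (57.9% against 40.2%) and in the whole lists of replicates 2 and 3 (62.4% against 48.1% and 57.9% against 43.8%).

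Summits near tRNA genes ranked lower than those near protein-coding gene starts in each list. The pooled relaxed list had 152 summits within 500 bp of a tRNA start, at a median rank of 15256 of 30000, and 5753 summits near a protein-coding gene start, at a median rank of 10266. Only 6 of the 152 (3.95%) were among the first 3000 ranks, against 15.4% of the coding summits. The ranks from 12001 to 15000 held the most, 22 (14.5%). The strongest 25% of the list held 17.1% of tRNA summits and 37.4% of coding summits. In replicates 1, 2 and 3 the median ranks were 14659, 12939 and 15819 near tRNA starts and 9167, 10732 and 10501 near coding starts. In replicate 1 the strongest 25% held 15 of 74 tRNA summits (20.3%), in replicate 2 it held 38 of 158 (24.1%) and in replicate 3 it held 21 of 149 (14.1%). The coding values were 42.9%, 34.6% and 36.5%. The tRNA share in the strongest 25% was thus lower than the coding share in 3 of 3 replicates. All replicates were called against the same control alignment.

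In replicates 2 and 3 summits were denser within 300 bp of the tRNA start than farther away, and in replicate 1 they were not. Counting every gene and summit pair, replicate 2 had 189 summits within 300 bp of the 290 starts, replicate 3 had 165 and replicate 1 had 52. Per gene and kilobase, the density within 300 bp was 1.09, 0.948 and 0.299 in replicates 2, 3 and 1. The density from 1000 to 2000 bp on either side was 0.419, 0.424 and 0.324. Central over outer density thus came to 2.59, 2.24 and 0.922 in replicates 2, 3 and 1 (mean 1.92 ± 0.88, SD, n = 3). Around protein-coding gene starts the ratio was 3.39, 3.26 and 2.6 in the same order, so replicate 1 had a central rise there. The ratio in the IDR set was 1.74 at tRNA starts and 4.56 at coding starts, and in the pooled relaxed list 2.58 and 3.15. In replicate 2 the counts per 100 genes were highest from 100 bp before the start to 200 bp after it, at 12.4 to 13.1 in each 100 bp. In replicate 3 they were highest on the sides, at 12.8 from 300 to 200 bp before the start and 11.4 from 100 to 200 bp after it, with 8.28 in the first 100 bp after the start. Replicate 1 had 1.72 in the 100 bp before the start and 2.07 in the 100 bp after it. These distances were chosen after the values were seen, and the densities carry no test.

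The 91 single tRNA genes, which have no neighbour to add summits, had ratios of 1.81, 2.01 and 1.21 in replicates 2, 3 and 1. The 258 tRNA genes over 500 bp from a coding TSS had 2.53, 2.14 and 0.717. The rise in replicates 2 and 3 was therefore present among genes away from coding promoters, and the lack of one in replicate 1 was too. For the IDR set the ratio was 1.55 at the 258 genes and 1.11 at the single genes, the latter from 6 summits within 300 bp. For the pooled relaxed list it was 2.48 and 2.1. Counted once each at the closest start, 72 of 158 summits of replicate 2 and 52 of 149 of replicate 3 lay within 100 bp of a tRNA start, against 11 of 74 in replicate 1.

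**Figure D2:**
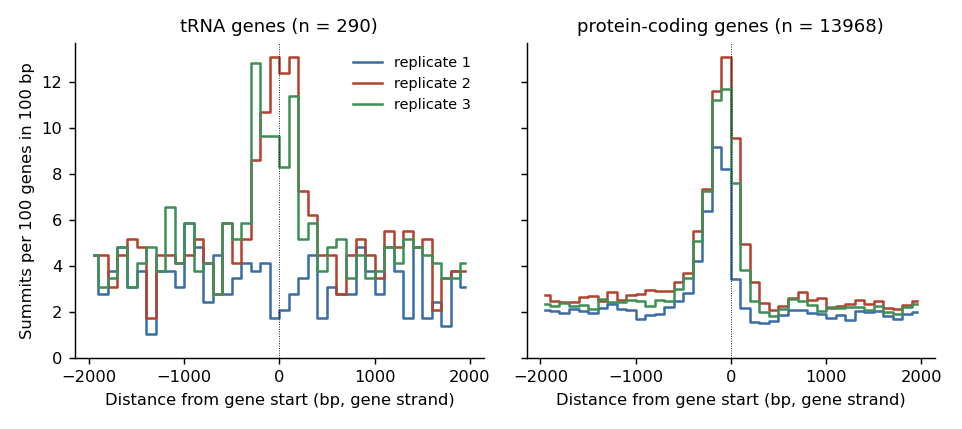
Lines give summits per 100 genes in 100 bp steps against distance from the gene start on the gene strand, for tRNA genes (left) and protein-coding genes (right), with 1 line per replicate (all 30000 peaks). At tRNA starts replicates 2 and 3 rise within 300 bp of the start, replicate 3 with its highest steps on either side, and replicate 1 does not rise (ratios of central to outer density 2.59, 2.24 and 0.922), while all 3 lines rise at coding starts.

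The summits lay on both sides of the tRNA gene start in about equal numbers. In the IDR set 16 of 32 summits lay upstream (50%, interval 31.9% to 68.1%), 1 lay inside the gene and 15 lay past its end. In the pooled relaxed list 73 of 152 lay upstream (48.0%, interval 39.9% to 56.3%), 26 inside and 53 past the end, with a median offset of 14 bp downstream of the start. Most of these peaks have the list's standard width of 430 bp, 20 of the 32 IDR peaks and 139 of the 152 relaxed peaks. The tRNA genes are 71 to 186 bp long, so a peak of that width is wider than any of the genes.

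The 47 tRNA genes with an IDR summit shared 32 summits in 30 loci. A summit had 1 gene in reach in 20 cases, 2 genes in 7 and 3 or more in 5, with up to 4. The median rank of the 32 among the 8424 IDR peaks was 5832, from 187 to 8423, and their median signal, the authors' enrichment value for a peak, was 134 against 180 over the set. Only 4 of the 32 (12.5%) were in the strongest 25% of the set, against 26.8% of 2389 IDR summits near a protein-coding gene start. Of the 32, 12 lay within 500 bp of a coding TSS and 6 were closer to a coding TSS than to the tRNA start.

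All of these 32 peaks overlapped a listed peak of replicate 2 and of replicate 3, and 23 overlapped one of replicate 1. Among the 8424 strongest peaks, 31 were found in replicate 2, 22 in replicate 3 and 18 in replicate 1, and 16 were found in all 3 (50%, against 66.0% of all IDR peaks). Of all IDR peaks, 84.0%, 89.3% and 82.1% were among the strongest of replicates 2, 3 and 1, and 92.0% overlapped a listed peak of replicate 1. A replicate peak can overlap more than 1 IDR peak, as those of replicates 1 and 3 do at Asp-GTC-1-5. At Gln-TTG-2-1 the IDR set lists 1 interval with 2 summits, of signal 523 and 117. These counts take that interval once per summit, with the same replicate peaks for both. The replicates thus differ in which of these peaks they hold, and 9 of the 32 were among the strongest of only 1 replicate. Among IDR peaks ranked beyond 4212, replicate 1 listed 15 of 23 peaks near tRNA starts (65.2%), 859 of 1176 near protein-coding starts (73.0%) and 2800 of 3013 others (92.9%). Replicate 3 listed 100%, 99.1% and 99.8% of these. The lower listing in replicate 1 was thus shared by peaks near coding starts.

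**Figure D3:**
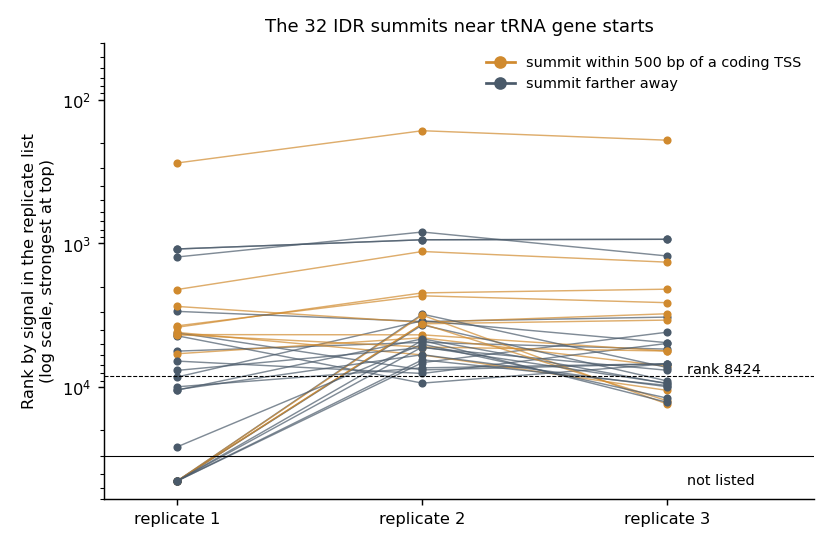
Each line is 1 of the 32 IDR summits near tRNA gene starts, with its rank by signal in each replicate list on a log axis, the strongest at the top; the dashed line is rank 8424 and points below the solid line overlapped no listed peak. Colours separate the 12 summits within 500 bp of a coding TSS from the others, and 9 lines start below the solid line in replicate 1.

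The strongest peak near a tRNA gene was the one before tRNA:Tyr-GTA-1-8, a tyrosine tRNA gene in an intron on 3R. Its pooled signal was 1113, rank 187 of the IDR set, and the 3 replicates ranked it 275, 164 and 191. The summit lay 199 bp upstream of the tRNA start and 245 bp from a coding TSS. The other 4 of the 5 strongest peaks at tRNA genes near a coding TSS were at His-GTG-1-3 (signal 428), Leu-TAA-2-1 (298), Phe-GAA-1-2 (216) and Trp-CCA-2-2 (185). The Phe-GAA-1-2 summit was 347 bp from the tRNA start and 25 bp from a coding TSS, and the coding gene nearest to this tRNA start is RpL17, which encodes a ribosomal protein. The Trp-CCA-2-2 summit was 203 bp from the tRNA start and 84 bp from a coding TSS, and it overlapped no listed peak of replicate 1.

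Among tRNA genes over 500 bp from any coding TSS, 2 single genes in introns led. The summit at tRNA:Gln-TTG-2-1 on X, 191 bp upstream of the start, had a signal of 523, and replicates 1, 2 and 3 ranked it 1092, 942 and 935. The summit at tRNA:Lys-TTT-1-1 on 2L, in an intron of Btk, which encodes a tyrosine kinase, had a signal of 496, and its ranks were 1241, 832 and 1222 in the same order. It lay 321 bp downstream of the start. Both signals were above those of the other genes of this kind.

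The next 8 genes of that kind had IDR signals from 142 to 284. Val-CAC-2-5 (284) and Pro-AGG-1-2 (234) had summits 482 and 415 bp from the start, near the limit of the window, and the Val-CAC-2-5 summit was closer to a coding TSS, at 417 bp. Ser-AGA-2-4 (167) had its summit 98 bp from the start, with replicate ranks of 8500, 3453 and 4905. Cys-GCA-1-2 (156) lies in a locus of 6 genes in an intron of the chitinase gene Cht7 and had 4 tRNA genes within reach of its summit. Replicate 1 listed no overlapping peak there, while the ranks in replicates 2 and 3 were 6751 and 4144. Arg-CCT-1-2 had a signal of 152, Asp-GTC-1-4 of 148, Pro-CGG-2-1 of 144 and Arg-TCT-1-1 of 142. The Asp-GTC-1-4 summit was 298 bp and the Pro-CGG-2-1 summit 210 bp from a coding TSS, although these gene starts are over 500 bp from one. Of these, Arg-TCT-1-1 had the closest summit, 39 bp upstream of the start, and no overlapping peak in replicate 1.

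The 3 genes shown by sequence with a summit within 100 bp of the start had peaks of lower signal than the first 2. Pro-AGG-1-7, whose summit lay inside the gene, 28 bp from the start, had a signal of 134, with ranks of 4182, 7588 and 6888 across the replicates. Gly-TCC-1-2 had a signal of 109, ranked 3624 in replicate 2 and 12452 in replicate 3, with no overlapping peak in replicate 1. The summit at Asp-GTC-1-5, 88 bp from the start, is also that of Asp-GTC-1-4 and had a signal of 148. The overlapping peak of replicate 2 ranked 4324, with its own summit 44 bp from the Asp-GTC-1-5 start. Those of replicates 1 and 3, ranked 4307 and 5607, had summits 302 and 304 bp from it, and they also overlap a second IDR peak (signal 117) whose summit is 68 bp from a coding TSS. The Pro-AGG-1-7 peak was thus among the strongest 8424 peaks of every replicate and the Gly-TCC-1-2 peak only in replicate 2.

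Of the 168 genes with a pooled relaxed summit, 121 had none in the IDR set. The strongest of these were at Ala-AGC-2-8 (rank 8475 of 30000, signal 93.2), Ile-TAT-1-1 (rank 8490), iMet-CAT-1-2 (rank 8960), Leu-CAG-1-3 (rank 9628) and His-GTG-1-4 (rank 9824). Of these 5, only Ile-TAT-1-1 had similar ranks in the replicates, 8390, 8191 and 8665, but from different places, with summits 411, 46 and 302 bp from the start. Leu-CAG-1-3 ranked 4952 in replicate 2 and 12102 in replicate 3 and had no summit in replicate 1. Ala-AGC-2-8 and iMet-CAT-1-2 had no summit in replicate 1 either. No pooled list held a summit for 122 tRNA genes, and 63 of them had none in any replicate list.

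Peaks were spread over the amino acids. At least 1 gene had an IDR summit in 19 of the 22 classes. The classes without one were asparagine (0 of 10 genes), iMet (0 of 6) and the only SeC gene. The largest shares were 3 of 7 cysteine genes (42.9%, interval 9.9% to 81.6%), 3 of 11 isoleucine genes (27.3%) and 5 of 19 glutamate genes (26.3%, interval 9.15% to 51.2%). All 3 cysteine genes share the 1 summit in Cht7. Of the 5 glutamate genes 3 share 1 summit in mrj, and Ile-AAT-1-4 and Ile-AAT-1-5 share 1 in ATP8A. Threonine had 1 of 17 genes (5.88%, interval 0.149% to 28.7%), and arginine, the class with the most genes, had 3 of 26 (11.5%, interval 2.45% to 30.2%). The intervals of all 22 classes include the 16.2% of all tRNA genes.

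In the pooled relaxed list the shares ran from 33.3% of the 6 elongator methionine genes to 83.3% of the 6 iMet genes, with the SeC gene without a summit. Isoleucine had 9 of 11 genes, threonine 12 of 17, arginine 16 of 26, lysine 7 of 19 and tryptophan 3 of 8. The iMet genes showed the difference between replicates, with 1 of 6 having a summit in the whole list of replicate 1 and 5 of 6 in each of the others. Asparagine genes had 0 of 10, 7 and 6 in replicates 1, 2 and 3, and elongator methionine genes had 0 of 6, 4 and 4. Not every class did so: proline genes had 9 of 17, 9 and 11, and tyrosine genes had 4 of 10, 5 and 3. The selenocysteine gene, tRNA:SeC-TCA-1-1, had no summit in any list, and 100% of the 32-base stretches around its start were unique.

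**Figure D4:**
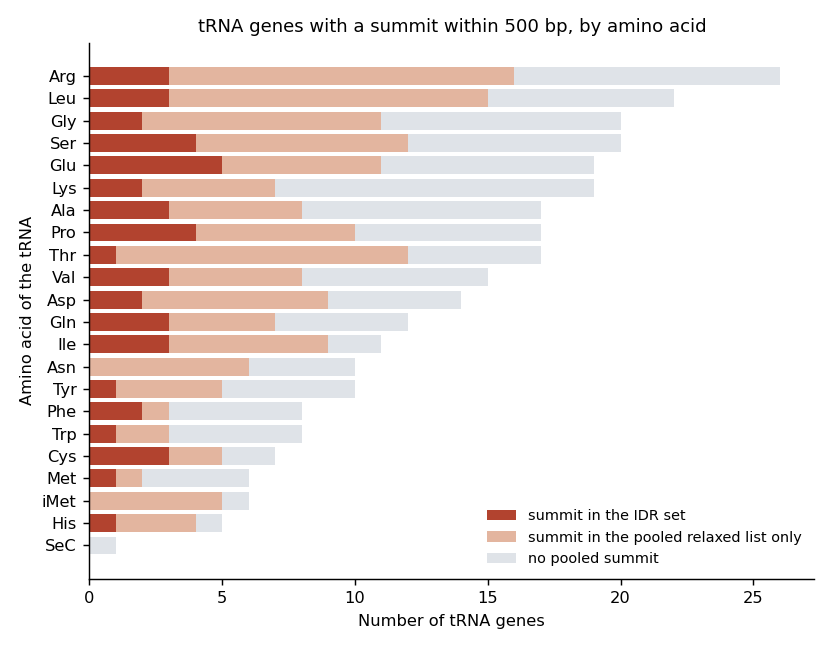
Each bar is 1 amino acid class, its length the number of tRNA genes, split into genes with an IDR summit within 500 bp (red), with a pooled relaxed summit only (pale red) and with neither (grey). Red is present in 19 of 22 classes and absent in Asn, iMet and SeC, while the pale part is larger than the red part in most classes.

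Counted by gene over all tRNA genes, the share with a summit was higher among clustered than among single genes in replicates 2 and 3, and lower in replicate 1. In the whole lists, 72.4% of the 199 clustered genes and 40.7% of the 91 single genes had a summit in replicate 2, and 66.3% and 39.6% in replicate 3. In replicate 1 the shares were 24.6% and 33.0%. The mean difference was 16.7 ± 21.8 percentage points (SD, n = 3; exact sign-flip permutation test, two-sided, p = 0.5), and over replicates 2 and 3 alone, an alternative chosen after seeing the data, it was 29.2 points. With the strongest 8424 peaks the clustered share was 27.1% against 13.2% in replicate 2, 10.1% against 8.79% in replicate 3 and 6.03% against 7.69% in replicate 1. The mean difference there was 4.52 ± 8.3 points (exact sign-flip permutation test, p = 0.75), and without replicate 2 it was -0.202 points. Among genes over 500 bp from a coding TSS, the difference with the strongest peaks was 1.6, 16.9 and 1.48 points in replicates 1, 2 and 3. In the whole lists it was -9.69, 36.7 and 28.6 points for these genes, so replicate 1 kept the lower clustered share only there.

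In the IDR set the counts were 36 of 199 clustered genes (18.1%, interval 13.0% to 24.2%) and 11 of 91 single genes (12.1%, interval 6.19% to 20.6%). A summit between neighbours counts for each gene in reach, and a locus with several starts covers more bases. Counted as loci, 19 of 69 loci of 2 or more genes (27.5%) and 11 of 91 single loci (12.1%) had an IDR summit. By locus, the share in replicate 1 was also higher in loci of 2 or more genes. It was 39.1% against 33.0% in the whole list and 14.5% against 7.69% among the strongest peaks. The share of genes did not follow the size of the locus further, at 19.7% in loci of 2, 16.7% in loci of 3 and 17.3% in loci of 4 to 7.

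The 3 largest loci hold 7 genes each and differ in what they show. In the isoleucine and leucine locus in an intron of ATP8A, a phospholipid flippase gene, 1 IDR summit of signal 94.4 lay within reach of 3 genes and 6 of the 7 had a pooled relaxed summit. Its summit overlapped no listed peak of replicate 1. In the intergenic locus of iMet and glutamate genes, 1 IDR summit of signal 119 was near Glu-TTC-1-5, with ranks of 7647, 5309 and 7633 in replicates 1, 2 and 3. All 7 of its genes had a pooled relaxed summit. In the arginine and serine locus on X no gene had an IDR summit and 4 of 7 had a relaxed one. The 3 genes without a summit there, Arg-TCG-3-1, Arg-TCG-3-2 and Arg-TCG-3-3, had 46.6%, 43.0% and 35.3% unique 32-base stretches around the start, the other 4 from 65.1% to 89.6%.

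Intronic and intergenic tRNA genes had nearly the same share in the IDR set, 21 of 128 (16.4%) and 26 of 155 (16.8%). The tRNA genes that overlap an exon of another gene had 0 of 7 in the IDR set and 7 of 7 in the pooled relaxed list. Over all tRNA genes, intronic genes had the lower share within each replicate. With the strongest peaks the values were 4.69% against 8.39% in replicate 1, 17.2% against 28.4% in replicate 2 and 7.81% against 11.6% in replicate 3. The mean difference was -6.23 ± 4.3 percentage points (SD, n = 3), lower in 3 of 3 replicates (exact sign-flip permutation test, two-sided, p = 0.25), and it was -7.5 points without replicate 1 and -3.75 without replicate 2. Among single genes over 500 bp from a coding TSS the order was the other way in 3 of 3 replicates. There the 42 intronic genes had 7.14%, 14.3% and 11.9% in replicates 1, 2 and 3, and the 41 intergenic genes had 0%, 4.88% and 2.44%. In the IDR set the intronic share was also the higher one among all genes away from coding TSSs, 16.1% against 12.9%. In the pooled relaxed list the shares were 50% and 62.6%. Of the intronic genes, 6 of 56 on the strand of the host gene (10.7%, interval 4.03% to 21.9%) and 15 of 72 on the opposite strand (20.8%, interval 12.2% to 32%) had an IDR summit, and these intervals overlap.

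The share with a summit was higher among the 32 tRNA genes within 500 bp of a protein-coding TSS than among the other 258, in each replicate and in both pooled lists. In the IDR set it was 11 of 32 (34.4%, interval 18.6% to 53.2%) against 36 of 258 (14.0%, interval 9.97% to 18.8%). A peak at the coding promoter itself can lie in reach of a near tRNA start and is counted here. One such case is Phe-GAA-1-2, with its summit 25 bp from a coding TSS. With the strongest peaks the shares were 21.9% against 4.65% in replicate 1, 37.5% against 20.9% in replicate 2 and 21.9% against 8.14% in replicate 3. The mean difference was 15.8 ± 1.85 percentage points (SD, n = 3; exact sign-flip permutation test, two-sided, p = 0.25), higher in 3 of 3 replicates and larger than their spread. It was 8.24 points with summits within 200 bp of the start and 9.43 points with near genes taken within 250 bp of a coding TSS. In the whole lists it was 16.1 ± 9.24 points, with replicate 2 having the smallest difference (68.8% against 61.6%) and replicate 1 the largest (50% against 24.4%). Away from coding TSSs, tRNA genes had a mean share of 11.2% among the strongest peaks, against 22.4% of protein-coding genes.

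The classes overlap, since 25 of the 32 near genes and 174 of the 258 others were clustered. Among the 258 genes away from coding TSSs, 29 of 174 clustered genes (16.7%) and 7 of 84 single genes (8.33%, interval 3.42% to 16.4%) had an IDR summit. The 41 single intergenic genes away from coding TSSs had 2 (4.88%, interval 0.596% to 16.5%), close to the 5.68% of bases, and the 42 single intronic ones had 5 (11.9%, interval 3.98% to 25.6%). Among the near genes the intergenic ones had 8 of 15 (53.3%) and the intronic ones 3 of 16 (18.8%).

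**Figure D5:**
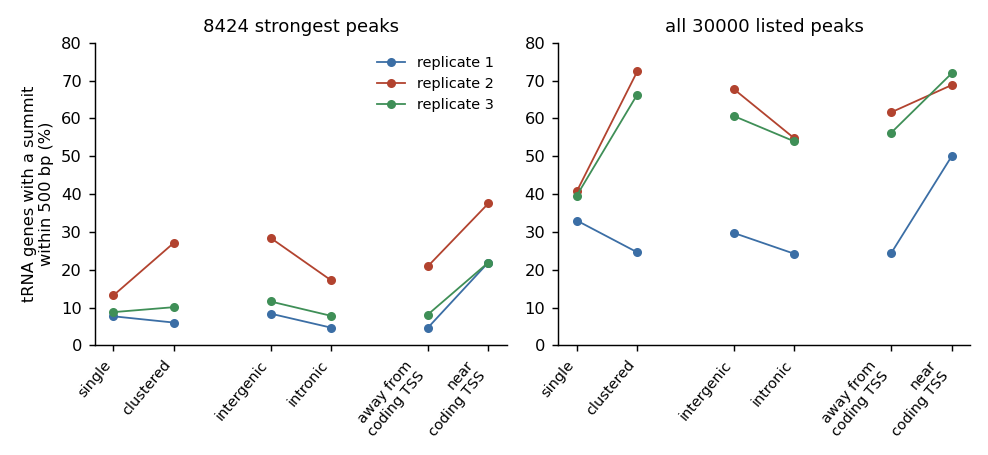
Points give the percentage of tRNA genes with a summit within 500 bp in each replicate, for the 8424 strongest peaks (left) and all 30000 peaks (right), with a line joining the 2 classes compared within a replicate. The near class is above the away class in all 3 replicates in both panels, the intronic class is below the intergenic one, and the clustered class is above the single one in replicates 2 and 3 but not in replicate 1 (24.6% against 33.0% in the right panel).

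The tRNA genes lie in less unique sequence than protein-coding gene starts. Within 250 bp of the start, a median of 89.8% of 32-base stretches occurred once in the main chromosomes, against 100% at protein-coding genes, and inside the tRNA genes the median was 0%. In 238 of 290 genes no such stretch inside the gene was unique. The 133 genes with at least 90% unique stretches around the start had an IDR summit in 18.0% of cases, and the other 157 in 14.6%. In the whole list of replicate 1 the shares were 35.3% and 20.4%, in replicate 2 they were 58.6% and 65.6% and in replicate 3 they were 52.6% and 62.4%. The more repeated genes thus had the lower share in replicate 1 and the higher share in the others. Of these 157 genes 122 were clustered, against 77 of the 133, so these shares do not separate the 2 traits. How the authors treated reads with several matches is not given in the sources used here, and its part in these shares was not tested.

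Other genes listed by symbol as RNA polymerase III genes were few and mixed. Which polymerase transcribes each one was not checked, and the place of the RNase P RNA gene in this list is in doubt. None of the 96 annotated 5S rRNA genes had a summit in any list, and their starts lie in repeats (a median of 0% unique stretches). Of 9 other genes, 3 had an IDR summit (33.3%) and 4 a relaxed one. The adjacent U6 snRNA genes snRNA:U6:96Ab and snRNA:U6:96Ac shared a peak of signal 287, rank 2329 of the pooled relaxed list, 112 bp from the start of the second. The 7SK gene snRNA:7SKa, whose RNA controls elongation by RNA polymerase II, had a peak of signal 180, and replicates 2 and 3 held it among their strongest. The RNase MRP RNA gene had a relaxed summit of rank 10635. The third U6 gene, the U6atac gene, the RNase P RNA gene and both 7SL genes had no summit in any list.

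Genes that encode the tRNA machinery are protein-coding. They are set beside the 21.8% of all coding genes with an IDR summit and the 40.2% with a relaxed one. No interval or test was made for these small lists, so a difference from those shares was not tested. Of 21 genes for RNA polymerase III subunits, its initiation factors and regulators, 7 had an IDR summit (33.3%) and 10 a relaxed one (47.6%). The strongest were at Bdp1 (signal 1260) and Brf (895), which encode TFIIIB subunits, with summits 99 and 167 bp from the start. Polr3E (381) followed, with its summit 313 bp from the start, then La (176), whose protein binds the 3′ ends of new polymerase III transcripts. Of 27 genes for tRNA processing and modification, 10 had an IDR summit (37.0%) and 15 a relaxed one (55.6%). Tcs5, a kinase gene of the complex that makes the threonylcarbamoyl adenosine of tRNAs, had a peak of signal 2670, rank 17 of the pooled relaxed list. Elp5 (1250) and Elp6 (517) of the Elongator complex, and Trmt6 (975) and Trmt61 (358), the partners of a tRNA adenosine methyltransferase, also had IDR peaks. The Elp6 summit lay 390 bp from the gene start. The 2 highest signals near tRNA genes themselves were 1113 and 523.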

How the data were processed

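The deposited files are peak lists in the narrowPeak layout, each peak with an interval, a summit offset and the authors' signal value, which is an enrichment against the control and is not scaled between libraries. Reads were aligned to dm6 and dm3, and relaxed peaks were called per replicate and on the pool of the 3 replicates against 1 control alignment, per the deposited text files. Not given in the sources used here are the aligner, the caller and the threshold of the IDR step. Sonicated fragments of 200 to 800 bp were selected, per the labels. Relaxed lists stop at 30000 peaks, so a peak missing from a list may only be weaker than those.

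The 5 dm6 lists were used, and the dm3 lists were not. Summits were made 1-based and peaks ranked by signal within a list. Genes came from Ensembl release 115 and sequences from the RefSeq dm6 assembly, whose chromosome lengths hold all peaks. Clustered genes have another tRNA start within 2000 bp, near genes a coding TSS within 500 bp, and peaks overlap when they share at least 50% of either peak. Intronic means inside an intron of a protein-coding gene. Uniqueness is the share of 32-base stretches within 250 bp found once, on either strand.

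Differences between classes were taken within each replicate and tested with an exact two-sided sign-flip permutation test. Nothing beyond replicate numbers says that libraries came from separate collections, so p-values measure the spread between these libraries. Printed sequences share no run of 35 bases with a chromosome arm left out of display. The named genes were the strongest by signal in each class, 1 per peak, plus the 3 largest loci and the SeC gene. Members, lists and tests were chosen with earlier results of these data known. Of the 2 protein-coding lists, 1 symbol each had no match and was left out. The counting steps were tested on simulated data. The software was Python 3.11.15, scipy 1.17.1, pandas 2.3.3, numpy 2.4.6 and, for plots, matplotlib 3.10.9.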

Additional observations from a re-analysis of the deposited data

How the results depend on the processing

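Of 72 alternatives, 2 of them chosen after seeing the data, 58 kept the direction of a difference or stayed inside the interval of a share. The IDR share of 16.2% was 8.28% and 23.8% with windows of 200 and 1000 bp, 7.24% when the peak had to overlap the gene, 3.45% among the 4212 strongest IDR peaks and 5.52% among peaks found in the strongest of all 3 replicates. Among peaks found in the strongest of the other replicates it ran from 5.86% to 8.97% when each replicate was left out. The protein-coding share was 15.4% and 26.2% with the windows, 12.0% among the 4212 strongest and 13.4% with support in all 3, above the tRNA share in each. The relaxed share of 57.9% was 41.0% and 72.1% with the windows. The difference from protein-coding genes of -9.38 points became 6.96 with all listed peaks, 14.3 with all listed peaks of replicates 2 and 3, and 3.69 against snoRNA and snRNA genes, and ran from -13.2 to -7.43 without single replicates. The clustered minus single difference of 4.52 points ran from -0.202 (without replicate 2) to 7.6 without single replicates, and was 13.3 over loci, 16.7 with all listed peaks and 29.2 with those of replicates 2 and 3. The intronic minus intergenic difference of -6.23 points ran from -7.5 to -3.75 without single replicates. This difference and the near-TSS, upstream and median rank results kept their direction or interval under all alternatives run. Single genes over 500 bp from a coding TSS, where the intronic share was the higher one, were not among these alternatives. No paired analysis was possible because there is no second group of samples; gene classes were compared within each replicate. Causes were not tested. Depth is unknown, so no limit of detection is given, and 3 replicates cannot give a p under 0.25.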
